A study of Mus musculus with 2 samples.

Results

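The complement genes C1qa, C1qb, C1qc, C3, C4b, Cfp, Serping1, C3ar1 and C5ar1, were followed across the cell types of a p16-reporter-positive lung population, with macrophages set against fibroblasts as the source of each component, regulator and receptor. The 9 genes were taken by name from the 15526 genes of the expression table, and all 9 were present. Cells came from lungs of p16-FDR mice on the C57BL/6 background aged 20 to 22 months. The p16-FDR allele carries an FLP recombinase together with a diphtheria toxin receptor fused to mCherry, and mCherry stands for activity of p16, a cell-cycle inhibitor encoded by Cdkn2a. Every cell had been sorted as mCherry-positive, so all groups compared here share the allele, the age and the gate, and mCherry-negative cells were not analysed here. The study lists 2 samples, sequenced one cell at a time with a droplet method that reads the 3' ends of transcripts.

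Complement is a cascade of plasma proteins that tags microbes, immune complexes and dying cells. In the classical pathway, C1q binds a target and the proteases C1r and C1s cut C4 and C2. The pathways converge on C3, whose fragments coat the surface, while the released peptides C3a and C5a signal to leukocytes. Liver makes most of the circulating proteins, and C1q is known as a product of tissue macrophages.

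The 3 genes of C1q lie side by side, so their start regions can be read together. C1qa (chr4:136895917-136898803), C1qc (chr4:136889804-136893065) and C1qb (chr4:136880129-136886187) occupied 18675 bases of the minus strand of GRCm38. RefSeq start regions, from 250 bases before to 50 bases after the gene start, were available for 6 of the 9 genes in the GRCm38.p6 table. Those of C1qb (chr4:136886151-136886450), C1qc (chr4:136892865-136893164), C3 (chr17:57228087-57228386) and Cfp (chrX:20931506-20931805), all on the minus strand, are shown. Each of these holds a match to a motif named next. The regions of C3ar1 and C5ar1, which held no match, are not printed. Capitals mark matches, on either strand, to the PU.1 and ETS core GAGGAA in C1qb, C1qc and Cfp and to the C/EBP core TTNCGNAA in C3.
C1qb: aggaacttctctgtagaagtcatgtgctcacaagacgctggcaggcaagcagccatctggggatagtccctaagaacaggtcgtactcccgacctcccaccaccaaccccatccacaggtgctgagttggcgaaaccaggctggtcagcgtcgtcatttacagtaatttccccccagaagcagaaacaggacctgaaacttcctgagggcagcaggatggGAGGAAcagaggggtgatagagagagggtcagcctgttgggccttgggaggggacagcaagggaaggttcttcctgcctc
C1qc: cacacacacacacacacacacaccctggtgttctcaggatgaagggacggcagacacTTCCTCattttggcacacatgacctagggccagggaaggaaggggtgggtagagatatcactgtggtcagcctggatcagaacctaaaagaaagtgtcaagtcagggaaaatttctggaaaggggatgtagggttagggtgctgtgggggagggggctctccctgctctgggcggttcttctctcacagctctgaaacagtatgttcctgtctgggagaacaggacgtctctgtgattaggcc
C3: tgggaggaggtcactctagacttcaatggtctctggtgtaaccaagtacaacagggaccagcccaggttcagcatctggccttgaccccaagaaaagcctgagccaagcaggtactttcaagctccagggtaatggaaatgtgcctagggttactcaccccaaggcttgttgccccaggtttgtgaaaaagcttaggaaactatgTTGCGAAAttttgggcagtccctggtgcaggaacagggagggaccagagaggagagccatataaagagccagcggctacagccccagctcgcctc
Cfp: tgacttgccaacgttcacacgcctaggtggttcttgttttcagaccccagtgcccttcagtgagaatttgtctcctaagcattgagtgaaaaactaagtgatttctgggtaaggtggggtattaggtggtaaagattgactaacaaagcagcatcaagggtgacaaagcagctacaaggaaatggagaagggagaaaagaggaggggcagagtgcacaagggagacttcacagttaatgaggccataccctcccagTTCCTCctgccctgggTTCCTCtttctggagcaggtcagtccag
GAGGAA occurred once in each of the C1qb and C1qc regions, at 2 positions in Cfp, and in none of C3, C3ar1 and C5ar1. It was present in 28.3% of 32851 RefSeq start regions, so it is a common string. The C/EBP core occurred in the C3 region alone among the 6 and in 2.47% of all start regions. The PU.1 and IRF composite site, searched on both strands and held by 2.72% of all start regions, was in none of the 6. A match is a string of letters in this window and says nothing of whether a factor is bound.

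The table held 1344 cells, 1145 in library 1 with a median of 5631 unique molecular identifiers (UMIs, counted transcript molecules) per cell and 199 in library 2 with a median of 6716. The library names matched neither sample title, so the table was treated as 1 sample and no test was run. A level is the sum of a gene's UMIs in a class, expressed per 10000 UMIs of any gene in that class, with 95% exact Poisson intervals. Shares of cells have 95% exact binomial (Clopper-Pearson) intervals. Both intervals cover counting error only, and UMIs of a gene were spread over cells more widely than a Poisson law gives. The 2 libraries shared no cell barcode.

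Cells were clustered without complement genes and named from marker genes. The macrophage-like cells numbered 177 (159 in library 1 and 18 in library 2) and joined 108 interstitial, 49 serous-cavity and 20 alveolar macrophage-like cells. The fibroblast-like cells numbered 91 (88 and 3). Each of these names rested on its own markers: all 12 interstitial, all 12 serous-cavity, all 12 alveolar and all 15 fibroblast markers were found in 25% or more of the cells of their class. The 12 general macrophage markers together had 413 UMIs per 10000 in macrophage-like cells and 9.32 in fibroblast-like cells, where 1 of them was at 0. The 15 fibroblast markers together had 0.981 in macrophage-like cells, where Col3a1, Pdgfra, Lum, Tcf21, Npnt and Apod were at 0, and 267 in fibroblast-like cells. A second stromal class of 92 contractile mesenchymal-like cells was led by Acta2, Myl9 and Wif1. It had 14 of the 15 fibroblast markers and 7 of the 12 contractile markers in 25% or more of its cells. The fibroblast list together had 150 UMIs per 10000 in it and the contractile list 102.

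The macrophage-like and the fibroblast-like cells held different complement genes. Relative to fibroblast-like cells, C1qa, C1qb, C1qc, Cfp, C3ar1 and C5ar1 were at least 4-fold higher in macrophage-like cells, and C3 and Serping1 were at least 4-fold lower. Thus 6 of 9 genes were past the fold upwards and 2 of 9 downwards, against 7.19% and 11.4% of the 12702 genes detected in at least 1% of cells. The median log2 difference of the 9 genes was 5.97, and that of all tested genes was -0.14. C4b was the exception, with substantial levels on both sides. Each kind of macrophage gave 6 genes higher than fibroblast-like cells. Interstitial cells had 2 lower, beside 7.32% and 9.3% of tested genes, and serous-cavity cells had 2 lower, beside 5.21% and 9.25%. Alveolar cells had 3 lower, C4b being the third, beside 8.38% and 5.51%. In the alveolar class all UMIs of C1qa, C1qb, C1qc and C3ar1 came from 1 of 20 cells, and without that cell 2 genes were higher, C5ar1 and Cfp. Cfp then rested on 5 UMIs in 19 cells against 1 UMI in fibroblast-like cells. With all 20 cells the interval of its ratio reached down to 2.82, below the 4-fold line. Against contractile mesenchymal-like cells, macrophage-like cells again had 6 higher and 2 lower, beside 6.24% and 12.6%.

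**Figure D1:**
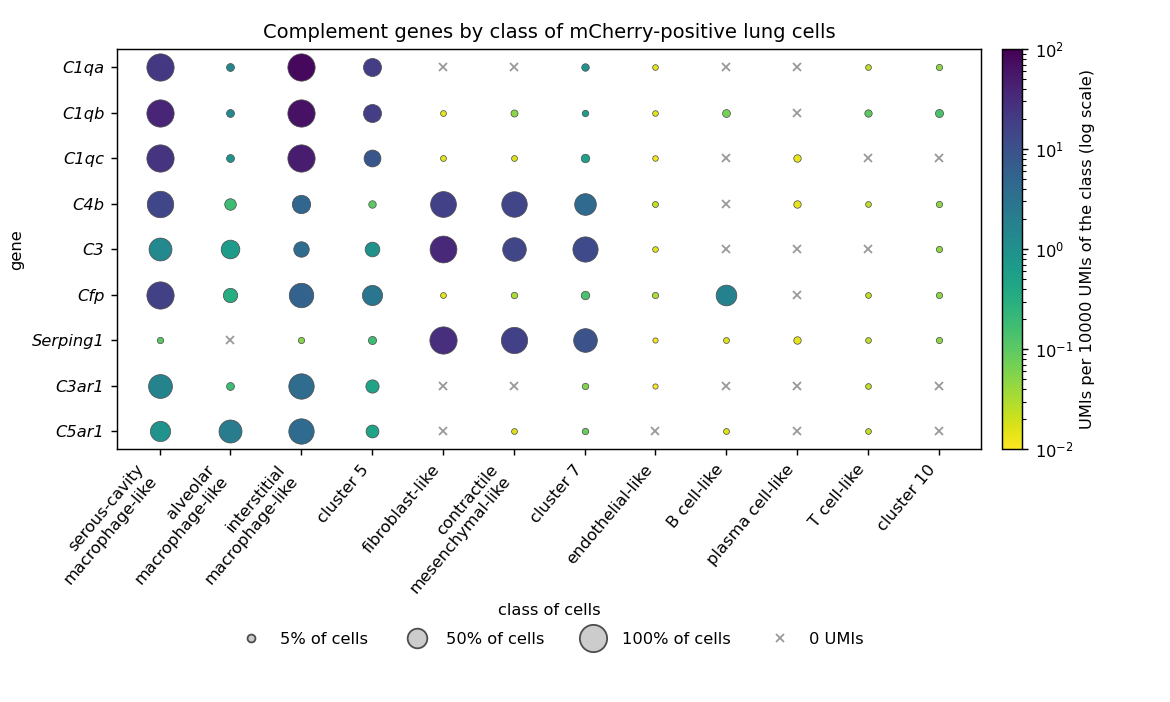
The colour of each dot is the gene's UMIs per 10000 UMIs of a cell class (log scale) and its area grows with the share of cells with a UMI; columns are classes of mCherry-positive lung cells and crosses mark classes with 0 UMIs. C1qa is highest in interstitial macrophage-like cells at 81.2, C3 and Serping1 in fibroblast-like cells at 35.1 and 28.5, and Cfp in serous-cavity macrophage-like cells at 17.1.

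C1qa, C1qb and C1qc encode the A, B and C chains of C1q, the target-binding part of the first complement complex. C1qa had 46.5 UMIs per 10000 in library 1 and 63.5 in library 2 of the macrophage-like cells, and was at 0 in both libraries of the fibroblast-like cells. Pooled, it stood at 48.6 in macrophage-like cells against 0 of 691691 UMIs in fibroblast-like cells, at least 1120-fold higher when the group at 0 is counted at a floor of 3 UMIs over the whole group. C1qb had 46.4 and 54.2 in the 2 libraries of macrophage-like cells, against a single UMI in all fibroblast-like cells, a ratio of 3276 (588 to 129393). C1qc had 31.8 and 42.9, likewise against 1 UMI, a ratio of 2297 (412 to 90741). In both libraries each of the 3 chains was higher in macrophage-like cells.

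Among the macrophage-like classes, the C1q level followed the kind of macrophage. C1qa stood at 22.3 in serous-cavity macrophage-like cells, 1.36 in alveolar macrophage-like cells and 81.2 in interstitial macrophage-like cells. Every one of the 49 serous-cavity and 108 interstitial cells held UMIs of all 3 chains. Thinned to 2500 UMIs per cell, 85.1% of serous-cavity and 100% of interstitial cells would still have shown C1qa. Among cells that should lack it, C1qa was in 0.99% of T cell-like cells (median 3606 UMIs) and in 0 of 82 B cell-like cells (median 6553). The alveolar level came from 1 of 20 cells, which held all 78 C1q UMIs of that class and also carried 6 Marco and 9 Chil3 UMIs, both alveolar macrophage markers. Marco is a scavenger receptor and Chil3 a secreted chitinase-like protein. That cell held 17937 UMIs, against a class median of 10093.5, and also 78 UMIs of H2-Ab1 and 5 of Scgb1a1, an airway secretory marker. Doublets were not removed, and whether it was a mixed droplet was not tested.

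Summed over the 3 chains, serous-cavity cells had 86.2 UMIs per 10000 (single cells 18.2 to 309, median 60.7) and interstitial cells 197 (53.4 to 374, median 199). The ranges overlapped widely, but the middle of the serous-cavity cells lay near the bottom of the interstitial range. A few serous-cavity cells carried much of the total, since the 5 cells richest in C1qa held 49.7% of its UMIs there, against 9.43% in interstitial cells. Without its 5 C1q-richest cells the serous-cavity sum was 65.2, and the interstitial sum was 193.

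The proportions of the chains differed as well. C1qa made up 25.9% (24.7 to 27.2) of C1q UMIs in serous-cavity cells and 41.3% (40.5 to 42.1) in interstitial cells. C1qb made up 45.3% (43.9 to 46.8) in serous-cavity cells and 33.9% (33.2 to 34.7) in interstitial cells. C1qc made up 28.7% and 24.8%. Cell by cell, C1qa exceeded C1qb in 3 of 49 serous-cavity cells and in 84 of 108 interstitial cells. Leaving out the 5 C1q-richest cells of each class widened the gap, with C1qa at 21.4% in serous-cavity cells and 41.1% in interstitial cells. The 15 interstitial cells of library 2 gave C1qa 40.5%, and the single serous-cavity cell of that library gave 23.7%. The serous-cavity proportions therefore rest almost wholly on library 1.

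**Figure D2:**
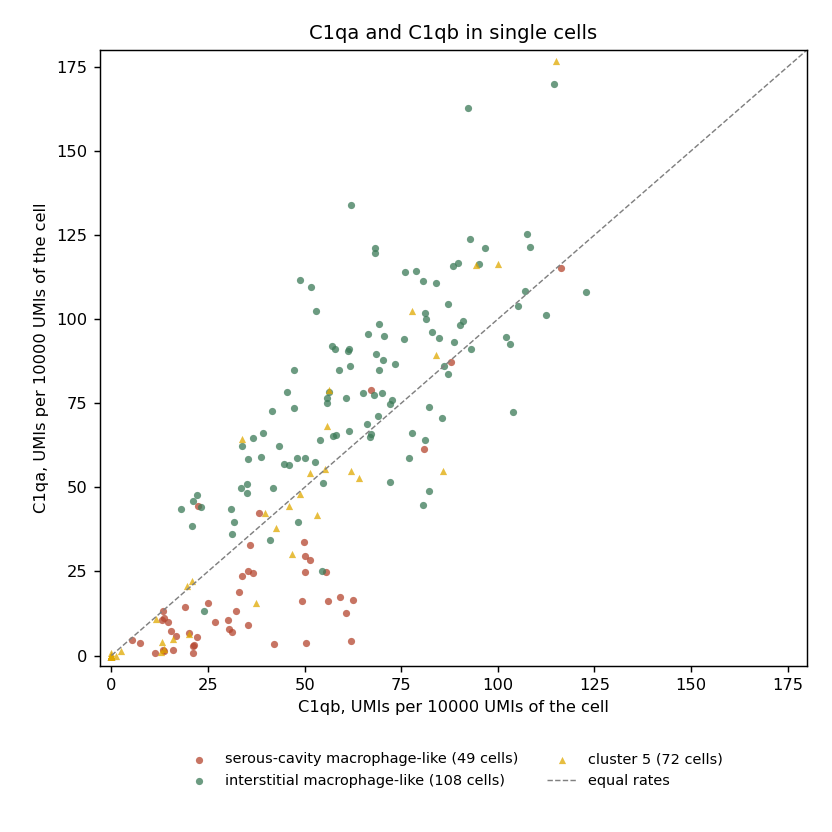
Each point is 1 cell of the serous-cavity macrophage-like, interstitial macrophage-like or cluster 5 class, with its C1qb level on the horizontal axis and its C1qa level on the vertical axis, both in UMIs per 10000 UMIs of the cell; the dashed line marks equal levels. Serous-cavity macrophage-like cells lie below the line in 45 of 49 cells and interstitial macrophage-like cells lie above it in 84 of 108.

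Within a class, the 3 chains moved together from cell to cell. Spearman correlations of the per-cell levels between the chain pairs were 0.64 to 0.82 over 49 serous-cavity cells and 0.63 to 0.71 over 108 interstitial cells. Cells of a class share their libraries, and each level is divided by the same cell total, so these values describe the cells and carry no test. In interstitial cells the correlations of the chains with C3ar1 were -0.03 to -0.01.

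Cluster 5, a class of 72 cells led by Tnip3, Plbd1, Il1b, Ccr2 and H2-Ab1 that stayed without a cell type name, was split for C1q. In it 25 cells had all 3 chains, 4 had 2 of them, 3 had 1 and 40 had none, and the pooled C1qa level was 18.9. Its 30 cells with a C1qb UMI (median 9265 UMIs) and 42 without (median 10025) were compared after their values were seen. C3ar1 was detected in 46.7% of the cells with C1qb and in 2.38% of those without. C5ar1 was detected in 33.3% and 9.52%, and Cfp had 4.22 and 1.61 UMIs per 10000. Mrc1, a mannose receptor of macrophages, was in 73.3% of the cells with C1qb and in 14.3% of those without. Flt3, a growth factor receptor of dendritic cells, was in 6.67% and 33.3%, and Cd209a, a dendritic cell lectin, in 23.3% and 47.6%. Itgax was in 70% and 35.7%, and Ccl22 in 26.7% and 26.2%. Over the whole lists, 11 of 12 general macrophage markers were in a larger share of the cells with C1qb, while of 16 dendritic markers 6 were in a larger and 10 in a smaller share. The summed level of the macrophage list was 259 UMIs per 10000 with C1qb and 162 without, and that of the dendritic list was 172 and 132.

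C4b encodes complement C4, the component cut first by the activated C1 complex. In macrophage-like cells it had 8.23 UMIs per 10000 in library 1 and 2.08 in library 2, against 17.7 and 15.7 in fibroblast-like cells. Pooled, this was 7.47 (7.04 to 7.92) against 17.6 (16.7 to 18.7), 2.36-fold lower in macrophage-like cells (2.18 to 2.56), and thus short of the 4-fold line. The macrophage-like level was a mixture of unlike classes. Serous-cavity cells had 14.1, alveolar cells 0.181 and interstitial cells 4.80, while fibroblast-like cells had 17.6. The interval of the serous-cavity level overlapped that of contractile mesenchymal-like cells at 14.4. C4b was found in 93.9% of serous-cavity, 43.5% of interstitial, 87.0% of contractile mesenchymal-like and 89.0% of fibroblast-like cells. It was at 0 in B cell-like cells and found in 0.99% of T cell-like cells.

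Of all C4b UMIs in the table, 32.1% were in macrophage-like, 34.3% in fibroblast-like and 24.8% in contractile mesenchymal-like cells. The 49 serous-cavity cells alone held 21.7%. C4b (chr17:34728380-34743882) has a close copy, C4a (chr17:34809092-34823464), which was not analysed here. Of the 451 stretches of 50 bases in the last 500 bases of C4b, 172 (38.1%) occur letter for letter in C4a. How reads that match both genes were counted is not given in the sources used here, so C4b levels are uncertain.

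Interstitial macrophage-like cells were themselves divided for C4b. The class was separated by Lyve1, a hyaluronan receptor that marks vessel-associated macrophages, a split chosen after values were seen. The 66 cells with a Lyve1 UMI (median 7282 UMIs) had 6.72 C4b UMIs per 10000, and the 42 cells without (median 6294) had 1.27. C4b was found in 60.6% (47.8 to 72.4) of cells with Lyve1 and in 16.7% (6.97 to 31.4) of those without. In library 1 the levels were 7.27 and 1.80, over 61 and 32 cells. In library 2 they were 1.82 and 0, over 5 and 10 cells, so the order was the same in both libraries at a lower level.

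Fcna and Cfp, genes of other secreted proteins of the system, shared that order. Fcna, a ficolin that recognises sugars for the lectin pathway, had 15.7 UMIs per 10000 in cells with Lyve1 and 0.819 in those without. Cfp had 6.20 (5.52 to 6.93) and 4.21 (3.47 to 5.06). C3 had 5.06 and 2.16 when pooled, but 0.605 and 0.883 in library 2. It was found in 27.3% of cells with Lyve1 and in 33.3% of those without. The pooled C3 level with Lyve1 rested largely on 2 cells, which held 145 and 49 of its 249 UMIs. No cell without Lyve1 exceeded 19.3 C3 UMIs per 10000. The C1q chains did not follow that order, with C1qa at 77.4 in cells with Lyve1 and 88.0 in those without, and C1qc at 48.9 and 48.2. H2-Ab1, a class II antigen presentation gene, ran the other way, at 28.5 in cells with Lyve1 and 94.2 in those without. C3ar1 was at 3.92 and 4.32, and C5ar1 at 4.06 and 4.47, with overlapping intervals.

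**Figure D3:**
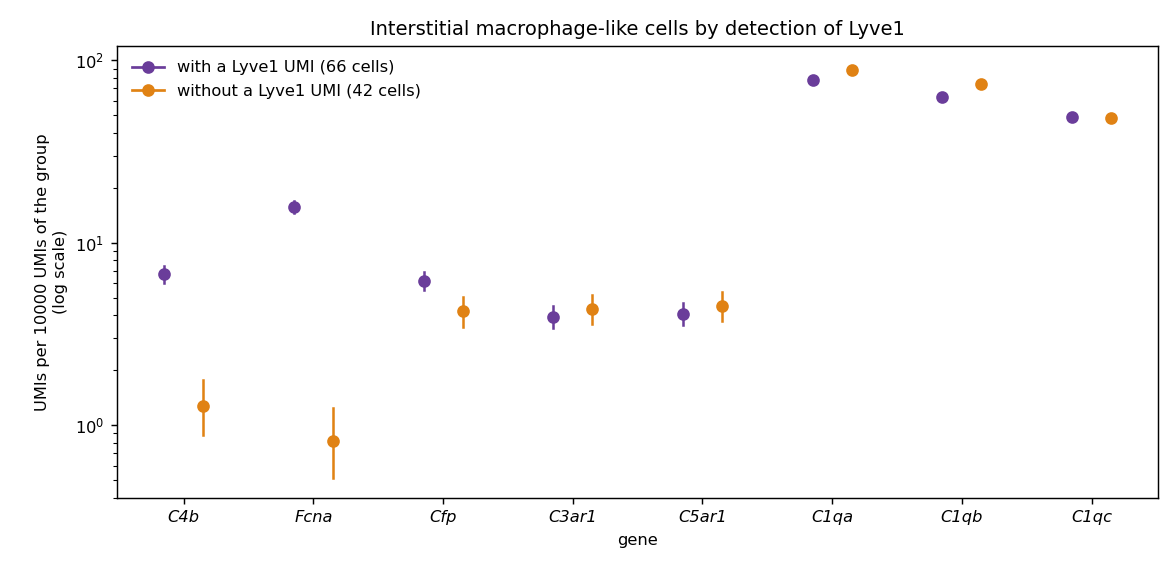
Points are UMIs per 10000 UMIs (log axis) of 8 complement genes in interstitial macrophage-like cells with a Lyve1 UMI (66 cells) and without one (42 cells), and bars are 95% exact Poisson intervals, some shorter than the point. C4b (6.72 with and 1.27 without) and Fcna (15.7 and 0.819) are higher with Lyve1, whereas C1qa (77.4 and 88.0) is not.

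C3 encodes the central component of the cascade, on which all pathways converge. In macrophage-like cells C3 had 2.84 UMIs per 10000 in library 1 and 0.586 in library 2, against 36 and 11.9 in fibroblast-like cells. Each library of macrophage-like cells lay below each library of fibroblast-like cells, although library 2 held only 3 fibroblast-like cells. Pooled, C3 was 2.56 (2.32 to 2.83) against 35.1 (33.7 to 36.6), 13.7-fold lower in macrophage-like cells (12.3 to 15.3). Fibroblast-like cells were not uniform, with single cells between 0 and 164 and a median of 26.6. Contractile mesenchymal-like cells stood at 14.6, so C3 was 2.40-fold higher (2.22 to 2.59) in fibroblast-like than in contractile cells. C3 was found in 96.7% of fibroblast-like and 73.9% of contractile cells, and in 0 of 101 T cell-like and 0 of 82 B cell-like cells.

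Stromal cells held most C3 UMIs. Macrophage-like cells had 8.35% of them, fibroblast-like cells 51.8%, contractile cells 19.2% and cluster 7 another 19.2%. Cluster 7 comprised 47 cells led by Scgb1a1 and Wfdc2, genes of airway secretory cells, and many of them carried fibroblast markers too. A clustering on 30 components separated 17 club-like cells from it, with a C3 level of 2.13, from 30 other cells with 31.8, of which 29 had a C3 UMI. The C3 of cluster 7 was thus mostly in the cells outside the club-like group.

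The macrophage C3 was low and uneven. Serous-cavity cells had 1.30 UMIs per 10000 and C3 was found in 69.4% of them (27.7% after thinning). Interstitial cells had 4.04, with C3 in 29.6% of them (18.4% after thinning). The intervals of serous-cavity, cluster 5 and alveolar cells, at 1.30, 0.932 and 0.634, overlapped from neighbour to neighbour. In the interstitial class, 2 cells of library 1 held 194 of the 307 C3 UMIs, 145 and 49 of them. Without these cells the interstitial level was 1.52. Both had 0 UMIs of Dcn, Col1a1, Col3a1 and Serping1, the stromal genes counted, and 124 and 32 UMIs of C1qa. Each had only 2 UMIs of the macrophage marker Mrc1, among 12190 and 6283 UMIs of any gene. Mrc1 stood at 13.4 UMIs per 10000 over all interstitial cells with C3.

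The 32 interstitial cells with a C3 UMI (median 7622 UMIs) also had more Cfp than the 76 without (median 6442), 8.22 against 4.11 UMIs per 10000. Cfp was found in 96.9% and 72.4% of them. C4b was lower with C3, at 2.80 against 5.81. These cells were grouped by a gene whose detection rises with depth, and depth was higher in the cells with C3; its part in the difference was not tested.

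Cfp encodes properdin, which stabilises the convertase of the alternative pathway. It had 9.44 UMIs per 10000 in library 1 and 5.11 in library 2 of macrophage-like cells, against 1 UMI in all fibroblast-like cells, a pooled ratio of 616 (110 to 24356). Its leading class was not that of C1q. Serous-cavity cells had 17.1, interstitial cells 5.50, cluster 5 had 2.73, B cell-like cells 1.79 and alveolar cells 0.317, and no neighbours in this order had overlapping intervals. Cfp was therefore 3.11-fold higher (2.77 to 3.50) in serous-cavity than in interstitial cells. Single serous-cavity cells lay between 5.92 and 32.1 with a median of 16.2, and none lacked it. In interstitial cells the range was 0 to 25.4 with a median of 4.69.

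Serous-cavity cells held 55.4% of all Cfp UMIs, interstitial cells 24.7%, cluster 5 11.6% and B cell-like cells 6.38%. B cells had Cfp in 56.1% of 82 cells (30.7% after thinning), against 0.99% of T cell-like cells (0.539%). The 46 B cell-like cells with Cfp had Cd79a and Ms4a1, defining B cell genes, in all 46 cells, Cd68 in 6 and Csf1r, a macrophage receptor, in 1 of them. Among the 36 without Cfp, Cd68 was in 3 and Csf1r in 0.

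Serping1 encodes C1 inhibitor, the serine protease inhibitor of C1r and C1s. It was the most one-sided stromal gene of the 9. Macrophage-like cells had 0.0522 UMIs per 10000 in library 1 and 0.16 in library 2, against 29.0 and 16.8 in fibroblast-like cells. Pooled, this was 0.0654 against 28.5, 436-fold lower in macrophage-like cells (237 to 910). Serping1 was found in every fibroblast-like cell, at 8.35 to 75.4 with a median of 28.1, and in 92.4% of contractile cells. It was found in 1.85% of interstitial cells, close to the 0.99% of T cell-like and 1.22% of B cell-like cells that give the background. Fibroblast-like cells exceeded contractile cells 1.63-fold (1.51 to 1.76).

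The stromal genes also varied together from cell to cell. The Spearman correlation of C3 and C4b was 0.57 over 91 fibroblast-like cells and 0.72 over 92 contractile cells. For C3 and Serping1 it was 0.44 and 0.50, and for C4b and Serping1 it was 0.31 and 0.55. Between fibroblast-like and contractile cells none of C3, C4b and Serping1 differed 4-fold, as 0.622% of all tested genes did upwards and 1.73% downwards.

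C3ar1 and C5ar1 encode the receptors of the peptides C3a and C5a. C3ar1 had 2.37 UMIs per 10000 in library 1 and 4.47 in library 2 of macrophage-like cells, and C5ar1 had 2.22 and 6.23. Neither had a UMI in fibroblast-like cells. Pooled, C3ar1 was at 2.63 against 0, at least 60.6-fold higher, and C5ar1 was at 2.71 against 0, at least 62.6-fold higher. Neither was thus detected, at this depth, in the class with most C3. A count of 0 in 91 fibroblast-like cells allows a share of cells with a UMI of up to 3.30% by the limit of 3 counts of the total, and the upper bound of the exact binomial interval was 3.97%.

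The receptors differed in which macrophages had them. C3ar1 stood at 1.63 in serous-cavity, 0.181 in alveolar and 4.06 in interstitial cells. C5ar1 stood at 0.877 in serous-cavity, 2.13 in alveolar and 4.21 in interstitial cells. C5ar1 was 4.80-fold lower (3.53 to 6.64) in serous-cavity than in interstitial cells. It was the only one of the 9 past 4-fold in that comparison, in which 4.4% of tested genes were lower and 2.13% higher. C3ar1 was 2.50-fold lower (1.97 to 3.20). Of the 49 serous-cavity cells, 48 were in library 1. Interstitial C5ar1 in that library was 3.43 with Lyve1 and 3.59 without, against 9.69 and 6.56 in library 2. The pooled 4.80-fold thus compares unequal mixes of libraries, and its interval reaches below 4. Alveolar cells kept C5ar1, found in 70.0% of 20 cells (35.4% after thinning), while C3ar1 was found in 1 of the 20. For alveolar over interstitial cells, 7 of the 9 genes were at least 4-fold lower, against 2.97% of tested genes, and none were higher, against 4.48%. C5ar1 and Serping1 were not among the 7.

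**Figure D4:**
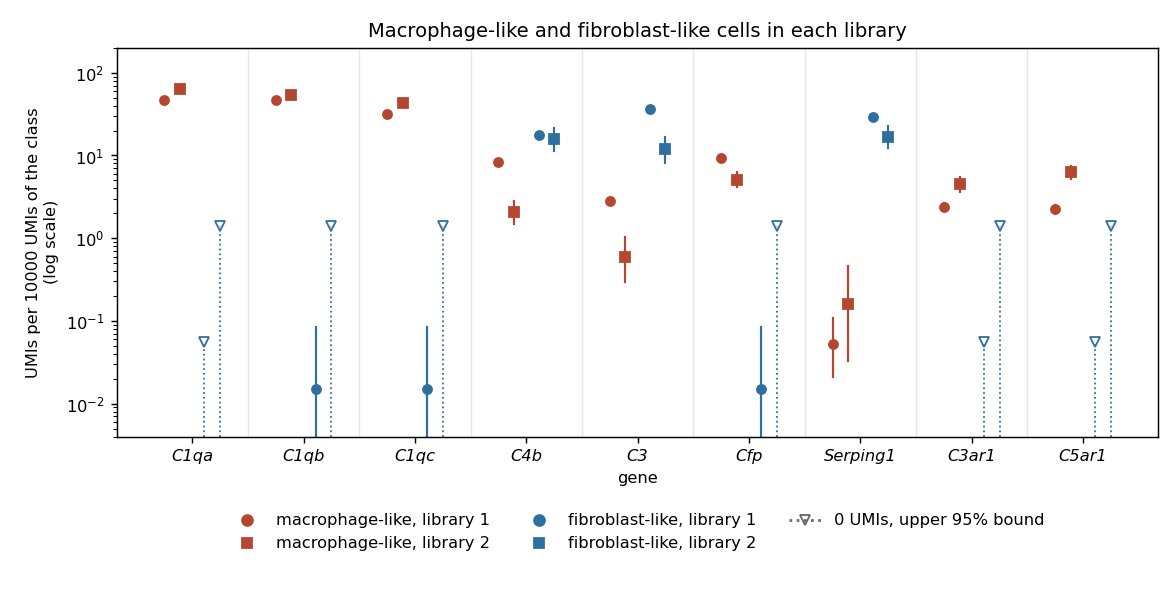
Points are UMIs per 10000 UMIs (log axis) of the 9 genes in macrophage-like and fibroblast-like cells of library 1 and library 2, bars are 95% exact Poisson intervals that end at the lower edge where they pass it, and open triangles are upper 95% bounds where no UMI was counted. In both libraries C1qa (46.5 and 63.5 in macrophage-like cells) has no UMI in fibroblast-like cells, and C3 and Serping1 are higher in fibroblast-like cells; library 2 has 18 macrophage-like and 3 fibroblast-like cells.

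**Figure D5:**
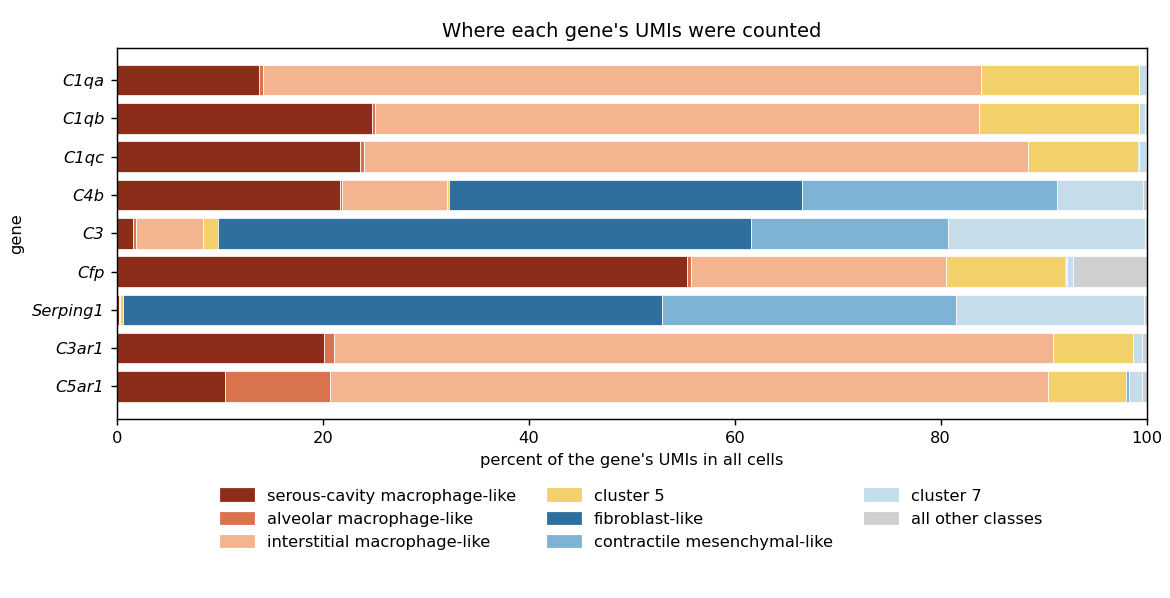
Each bar divides all UMIs of 1 gene in the table (percent) over the cell classes, from the macrophage-like classes at the left to all other classes at the right. The macrophage-like classes together held 83.9% of C1qa, fibroblast-like cells held 52.4% of Serping1, and C4b was divided between macrophage-like cells (32.1%) and fibroblast-like cells (34.3%).

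The rest of the system was taken from lists of 58 complement genes, of which 41 were in the table; the others were not analysed here. Of the 32 genes outside the 9, 24 were detected in at least 1% of cells, and 8 were higher and 8 lower by at least 4-fold in macrophage-like relative to fibroblast-like cells, beside 7.19% and 11.4% of all tested genes. Counting the 9 as well, the classical pathway had 3 of 7 genes higher and 3 of 7 lower (median log2 difference -1.24). The lower ones were the proteases. C1ra had 0.177 UMIs per 10000 in macrophage-like and 4.51 in fibroblast-like cells, 25.5-fold lower. C1s1 had 1 UMI in macrophage-like cells and 5.29 per 10000 in fibroblast-like cells. C2, whose product joins C4 in the convertase, had 0.0523 and 1.39, 26.5-fold lower. Within the first complement complex, the recognition chains and the proteases thus lay in different cells.

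In the other arms, single genes fell on either side. The lectin pathway had 1 of 3 genes higher, Fcna, at 9.20 in macrophage-like cells and 0 in fibroblast-like cells, and 1 lower, Colec12, a scavenger collectin, at 0.818 and 5.07. Fcna stood at 11.2 in serous-cavity and 10.5 in interstitial cells. The alternative pathway had Cfp higher and C3 and Cfb lower, and Cfb, which encodes factor B, stood at 0.0850 and 0.636. Of the terminal components, which build the membrane pore, C6 was higher at 0.412 against 0.0723, and C7 was lower at 0 against 4.55, at least 232-fold. Among soluble regulators Serping1 and Clu were lower and none were higher. One of 5 membrane regulators passed, Cd59a, which blocks the pore, at 19.3-fold lower.

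Of 10 receptors 8 were higher and none lower, beside 7.19% and 11.4% of all tested genes. Their median log2 difference was 5.23, beside a median of -0.14 over all tested genes. Besides C3ar1 and C5ar1 the 8 were C5ar2, Itgam, Itgax, Itgb2, Vsig4 and Cd93. Interstitial cells alone had 7 higher, serous-cavity cells 6 and alveolar cells 6, beside 7.32%, 5.21% and 8.38% of tested genes. Itgam, the alpha chain of complement receptor 3, had 5.19 UMIs per 10000 in macrophage-like cells and 0 in fibroblast-like cells, and 12.1 in serous-cavity cells. Its partner Itgb2 had 4.06 against 0. Itgax, the alpha chain of complement receptor 4, was highest in alveolar cells at 3.03. Vsig4, a macrophage receptor for C3 fragments, stood at 1.69 in macrophage-like cells and had 2 UMIs in fibroblast-like cells.

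Cells with a Cdkn2a UMI could be set against the other cells of their class, although all had been sorted for the reporter. Cdkn2a was found in 49.0% (34.4 to 63.7) of serous-cavity, 23.1% of interstitial and 8.79% of fibroblast-like cells. In serous-cavity cells C1qa had 30.4 UMIs per 10000 with Cdkn2a and 13.2 without. This gap rested on few cells, since 4 of the 5 C1q-richest cells had Cdkn2a, and without the 5 cells the levels were 15.7 and 12.4. C1qb was then 32.8 and 31.6, and C1qc 19.5 and 18.6. In interstitial cells C3 was 12 with Cdkn2a and 1.27 without. This gap rested largely on the 2 C3-rich cells, each with 3 Cdkn2a UMIs, which held 194 of the 235 C3 UMIs with Cdkn2a. C3 was found in 40% of the interstitial cells with Cdkn2a and in 26.5% of those without.

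The genes most like each of the 9 over the 13 clusters were named by Pearson correlation of mean natural-log values among 13469 candidates. For C1qa they were Slc11a1 (0.995), Gpr84 and Csf1r, and for C1qb and C1qc Gpr84 came first (0.996 and 0.999). C3ar1 was most like Pf4 (0.996), and C5ar1 most like Cd33 (0.994). C3 was most like Lpar1 (0.988), followed by Htra3, and Serping1 was most like Negr1 (0.9998), followed by Cilp. C4b had the weaker partner Ptgis (0.961), and Cfp had F630028O10Rik (0.973) and Csf3r. Among the 9 themselves, C1qa and C3ar1 reached 0.99, C3 and Serping1 0.97, C1qb and Cfp 0.876, C1qa and C5ar1 0.819, and C3 and C4b 0.809. These values are over 13 points of one table and describe which clusters have a gene.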

How the data were processed

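Cells were sequenced with the 10x 3' v3 kit, per the labels' protocols, and processed with Cell Ranger 3.0.2 and mm10, per the submitters' processing notes. The deposited values are natural-log values: per cell, UMIs were scaled to 10000, 1 was added and the natural log was taken by the authors, as the values show. Every back-transformed cell summed to 10000.0. To recover UMIs, the values of each cell were divided by its smallest nonzero value, which was assumed to be 1 UMI. The results were whole numbers (largest deviation 1.78e-10 with a tolerance of 1e-06). The table has 0 unused columns of cells. Filters applied before deposit were not given in the sources used here.

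Cells were clustered with scanpy 1.11.5 and igraph 0.11.9 on 2000 variable genes without complement genes, 20 components, 15 neighbours and a Leiden resolution of 0.5, which gave 13 clusters. Clusters were named from marker lists by their leading genes, after seeing the data. No doublets were removed; 51 cells (3.79%) with markers of several lineages were left out in an alternative. The 9 genes, the lists and the splits were chosen with earlier results of these data known.

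A fold of at least 4 was used as the line, over 12702 genes detected in at least 1% of cells, with a class at 0 counted at 3 UMIs. Shares of cells were also computed for 2500 UMIs drawn from each cell. The rule for named genes was the 9 genes, other listed complement genes found in 5% of cells of any class or more, the 3 most similar genes for each of the 9, up to 5 leading genes of a cluster, and markers. Lyve1, Cdkn2a and H2-Ab1 as splitting or companion genes were chosen afterwards. Positions come from the GENCODE annotation of GRCm38, which held 15363 of 15526 symbols. With 1 sample, no test was made. The calculation of folds was tested on simulated data. A gene of the complement lists is counted in them but not reported here.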

Additional observations from a re-analysis of the deposited data

How the results depend on the processing

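All 9 genes kept the direction of their difference between macrophage-like and fibroblast-like cells in each of 18 alternatives, except that C1qa, C1qb, C1qc and C3ar1 had no value in alveolar cells without 1 cell. The counts past 4-fold were 6 higher and 2 lower under all of them except without library 1 (5 higher, 3 lower), with alveolar cells alone (6 and 3; 2 and 3 without the 1 cell that held their C1q UMIs), and with a fold of 2 (6 and 3). The log2 difference of C3 ranged from -6.02 (alveolar cells without that cell) to -3.12 (interstitial cells alone), that of C4b from -6.61 (alveolar cells alone) to -0.32 (serous-cavity cells alone), and that of Serping1 from -10.05 to -6.72. For the other complement genes the main counts were 8 higher and 8 lower. Leaving out library 1 gave 0 higher and 5 lower, and leaving out library 2 gave 8 and 8; library 2 has 3 fibroblast-like cells. Thinning to 2500 UMIs per cell gave 5 higher, and alveolar cells alone, an alternative chosen after seeing the data, gave 4 higher, also without that cell. With no filter on low genes the share of all genes past the line was 5.91% higher and 9.74% lower, and with detection in at least 5% of cells it was 8.32% and 9.03%. No paired analysis was possible because the results come from no test; values within each library stand in the report. Depth limits the reading of genes at a few UMIs per class, and a class with 0 UMIs gives a bound and not a level.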

Other observations

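Endothelial-like cells, the largest class with 603 cells, had few UMIs of the 9 genes but carried other complement genes. Clu, which encodes the soluble regulator clusterin, had 11.7 UMIs per 10000 in them, against 0.0719 in macrophage-like and 0.333 in fibroblast-like cells. The endothelial clusters divided over Cd93, a receptor first described for C1q, which had 9.32 in cluster 3, led by Ptprb, Vwf and Edn1, and 0.21 in cluster 1, led by Apln and Car4. Clu was at 7.23 in cluster 3 and 13.9 in cluster 1. Masp1, a protease of the lectin pathway, stood at 0.13 in cluster 3 and 0.58 in cluster 1.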
